A study of Mus musculus with 24 samples.

Results

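The genes described here are 36 genes of mitosis and the spindle, chosen by name as known parts of the machinery that divides a cell. They were chosen with earlier results of these data known. A gene was taken as measured where the platform annotation gave its symbol alone to a probe set, and the brightest probe set stood for the gene. By that rule 32 of the 36 were found among 18820 measured genes. Ccnb1 was not found, and Nusap1, Foxm1 and Ube2c were named only on probe sets that also named other genes. RNA was measured with 24 arrays of mouse samples, 3 in each of 8 groups. The samples were whole livers and primary hepatocytes cultured overnight, from male mice aged 8 weeks. Control mice were NEMOf/f, so they carried the floxed NEMO gene and served both single knockouts and the double knockout. NEMO knockout mice lacked NEMO in hepatocytes (NEMOΔhepa), KEAP1 knockout mice lacked KEAP1 there (KEAP1Δhepa), and the double knockout lacked both. Alfp-Cre, which made the deletions, is driven by albumin and alpha-fetoprotein regulatory sequence active in liver parenchymal cells. Cells outside the parenchyma are expected to keep both genes, and deletion in bile duct cells was not measured. Values are log2 intensities, so a difference of 1 is a doubling. The labels do not say that replicates of a group came from different mice, so p-values measure only the spread between these samples.

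Mitosis is run by a switch: cyclin-dependent kinase 1 bound to cyclins A and B starts it, and the anaphase-promoting complex ends it by having the cyclins destroyed. Between these steps kinases of the Polo and Aurora families build the spindle, kinetochores tie chromosomes to it, the spindle checkpoint delays anaphase until all are attached, and an actin ring divides the cell. Most of these genes are silent in resting cells, where the DREAM complex holds their promoters off, and are switched on late in the cell cycle by B-MYB, MuvB and FOXM1. Hepatocytes of the adult liver rarely divide. NEMO (gene Ikbkg) is the regulatory subunit of the IκB kinase that activates NF-κB, and hepatocytes without it are known to die and be replaced. KEAP1 marks the transcription factor NRF2 for degradation, and Nqo1 is a classic NRF2 target.

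The promoter sequences are shown first, because these genes moved together on the arrays and many are known to share a DREAM-bound promoter layout. In that layout a CHR element (cell cycle genes homology region, TTTGAA or the variant TTCGAA) lies near the start, downstream of one or more CCAAT boxes bound by NF-Y. RefSeq promoter windows of GRCm38.p6, running from 250 bases before the annotated start to 50 after it, were held for 31 of the 36 genes, in 34 windows. Both motifs were searched on both strands (TTTGAA reads TTCAAA and CCAAT reads ATTGG on the other strand, and TTCGAA reads the same), and neighbouring matches may share a base. A CHR element was found for 22 of the 31 genes, or 71.0%, against 21.7% of the 27025 genes of the table. It lay within 60 bases of the start for 64.5% of them, against 7.0% of all genes. A CCAAT box was found for 74.2% against 41.1%, and both motifs in 1 window for 64.5% against 8.61%. These are matches of letters, not measured binding. The share with both motifs required neither the order of that layout nor a place near the start. The 6 genes below had the largest increase in NEMO knockout hepatocytes among those with both motifs in the last 150 bases before the start, which are printed 5′ to 3′ with the motifs in capitals.
Mki67, chr7:135716380-135716529, minus strand: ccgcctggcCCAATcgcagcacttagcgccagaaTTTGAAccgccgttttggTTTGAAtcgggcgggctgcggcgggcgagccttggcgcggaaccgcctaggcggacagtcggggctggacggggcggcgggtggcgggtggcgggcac
Ect2, chr3:27153879-27154028, minus strand: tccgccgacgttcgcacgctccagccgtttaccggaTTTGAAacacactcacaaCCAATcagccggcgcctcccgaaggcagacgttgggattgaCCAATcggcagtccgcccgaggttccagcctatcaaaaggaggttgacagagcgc
Prc1, chr7:80294326-80294475, plus strand: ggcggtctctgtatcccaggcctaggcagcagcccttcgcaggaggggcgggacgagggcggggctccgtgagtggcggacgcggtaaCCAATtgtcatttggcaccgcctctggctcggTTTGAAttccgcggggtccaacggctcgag
Ckap2, chr8:22185820-22185969, minus strand: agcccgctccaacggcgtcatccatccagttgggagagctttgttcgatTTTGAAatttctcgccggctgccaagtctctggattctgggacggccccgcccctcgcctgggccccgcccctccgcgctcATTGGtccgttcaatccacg
Top2a, chr11:99024190-99024339, minus strand: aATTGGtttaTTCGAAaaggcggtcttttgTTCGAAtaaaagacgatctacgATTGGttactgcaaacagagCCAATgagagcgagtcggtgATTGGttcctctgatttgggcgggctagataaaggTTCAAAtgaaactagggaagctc
Cdc20, chr4:118437344-118437493, minus strand: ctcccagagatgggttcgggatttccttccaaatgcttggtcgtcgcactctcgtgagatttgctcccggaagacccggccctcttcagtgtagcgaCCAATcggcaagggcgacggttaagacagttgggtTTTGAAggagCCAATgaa
The next 2 genes had the largest increase among those with no CHR element anywhere in the window, and are shown for contrast.
Knstrn, chr2:118813853-118814002, plus strand: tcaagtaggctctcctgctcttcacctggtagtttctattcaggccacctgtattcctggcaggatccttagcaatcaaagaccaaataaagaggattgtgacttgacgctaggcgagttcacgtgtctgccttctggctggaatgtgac
Nuf2, chr1:169531465-169531614, minus strand: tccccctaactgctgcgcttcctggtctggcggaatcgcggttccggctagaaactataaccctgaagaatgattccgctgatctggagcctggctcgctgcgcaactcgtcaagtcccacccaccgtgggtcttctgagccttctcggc
Mki67 has paired elements starting 116 and 98 bases before its start, and Cdc20 has 1 between CCAAT boxes at 53 and 8. The printed element of Ect2, at 114, lies upstream of its CCAAT boxes at 96 and 55. A further element in that window of Ect2 starts at base 40 after the start, downstream of both boxes, and is not printed. The printed element of Ckap2, at 101, lies upstream of its box at 20. The printed elements of Mki67, Ect2 and Ckap2 all lie more than 60 bases before the start. Top2a shows 3 elements and 4 CCAAT boxes in the stretch. In several others, such as Hmmr, Ccnb2 and Cenpf, the element lies just after the start and is not printed. Knstrn and Nuf2 have neither motif in the printed stretch. The trait was shared by related lists described further on. A CHR element was found for 63.2% of 38 other mitosis genes with a window, 45.5% of 11 DREAM and MuvB regulators, 22.2% of 18 constitutive mitosis genes and 0 of 9 brakes on mitotic entry.

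**Figure D1:**
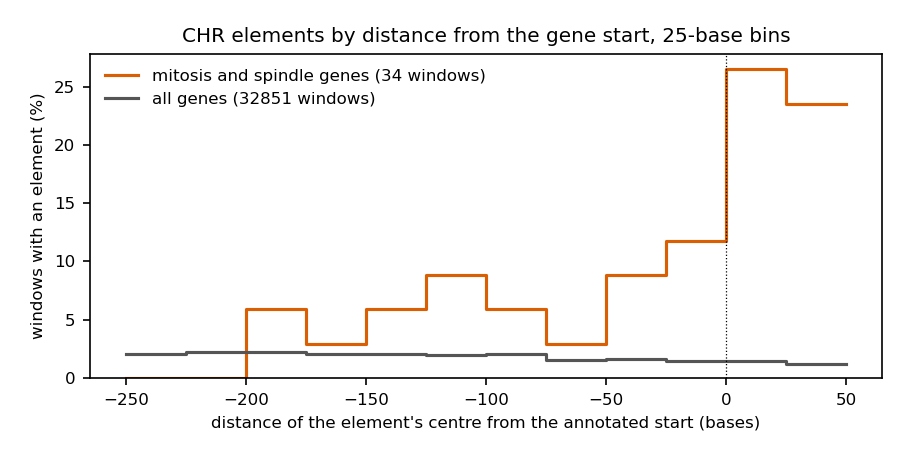
Percent of RefSeq promoter windows that hold a CHR element, in bins of 25 bases by the distance of the element's centre from the annotated start, for the 34 windows of the mitosis and spindle genes and all 32851 windows. In the members the share is highest just after the start, at 26.5% of windows, where it is 1.44% over all windows.

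Several arrays stood apart from their labels, which bears on the comparisons that follow. The array labelled liver control 3 read 9.17 for Nqo1, against 4.71 and 5.37 on the other control livers. Double knockout livers read 9.25 to 9.36. Control 3 also had the highest value of its group for all 32 genes. So did liver NEMO knockout 3 and hepatocytes double knockout 2 in their groups, and those arrays were kept. Liver double knockout 3 carried RNA of fat (Adipoq 7.17, against 2.26 to 2.58 on the other livers) and of bile duct (Krt7 7.81, against 3.67 to 5.01). The arrays labelled hepatocytes control 1 and hepatocytes double knockout 3 carried Xist, expressed in females, at 9.65 and 9.75, against 2.00 to 2.98 on all others, although the labels give male mice. Ikbkg read 6.69, 6.63 and 6.69 in control and 6.26, 6.27 and 6.60 in NEMO knockout hepatocytes, and 6.86, 6.81 and 6.40 against 6.26, 6.25 and 6.14 in liver. Its 3 knockout arrays lay below the 3 control arrays in both tissues. It read 6.01, 6.08 and 6.29 in double knockout hepatocytes and 6.18, 6.47 and 6.31 in double knockout liver, where liver control 3 fell within that range. Keap1 read 6.04, 6.35 and 5.88 in control, 5.47, 5.38 and 5.76 in KEAP1 knockout and 5.93, 5.75 and 5.82 in double knockout liver. In hepatocytes Keap1 read 6.32, 5.90 and 5.95 in control and 5.73, 5.91 and 5.81 in KEAP1 knockout. It read 5.68, 5.62 and 5.87 in double knockout hepatocytes. The KEAP1 knockout arrays lay below the controls in liver and overlapped them in hepatocytes, and the double knockout arrays overlapped them in liver and lay below in hepatocytes. Nqo1 read 8.07 to 9.65 on all KEAP1 and double knockout arrays. On the control hepatocyte arrays it read 7.77, 5.0 and 6.63, so control 1 lay just below that range. Results are given on all arrays, and counts of members also without these 4 where they change. Without them the liver control and double knockout groups and the same groups of hepatocytes hold 2 arrays each. Liver control 3 was doubted partly for the members' own values, so counts without it are not independent evidence on the members.

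Loss of NEMO came with higher levels of all 32 genes in cultured hepatocytes and of 18 in liver, where the arrays spread more. In hepatocytes all 32 were higher in the NEMO knockout than in the control (limma, Benjamini-Hochberg adjusted p under 0.05 over all genes), where 4.61% of all genes were called higher. Every NEMO knockout array lay above every control array for all 32 genes, against 11.2% of all genes. These are mixed samples, so more dividing cells and more RNA per cell cannot be told apart. The median change was 2.62 on the log2 scale, against -0.02 over all genes. The smallest was Melk at 0.97 ± 0.21 and the largest Mki67 at 4.04 ± 0.24, which is 16.4-fold. All 32 calls held when any 1 array was left out, and without the 4 arrays, where 4.14% of all genes were called higher. In liver 18 of the 32 were called higher, where 1.01% of all genes were, and the median change was 1.71 against -0.04. All 32 changes in liver were above 0, and for 27 genes the NEMO knockout arrays lay above all control arrays, against 10.7% of all genes. The count in liver turned on single arrays: it was 0 without control 1, control 2 or NEMO knockout 3, and 9 and 7 without NEMO knockout 1 and 2. It was 29 without control 3 and 30 without the 4 arrays, where 8.48% of all genes were called higher.

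**Figure D2:**
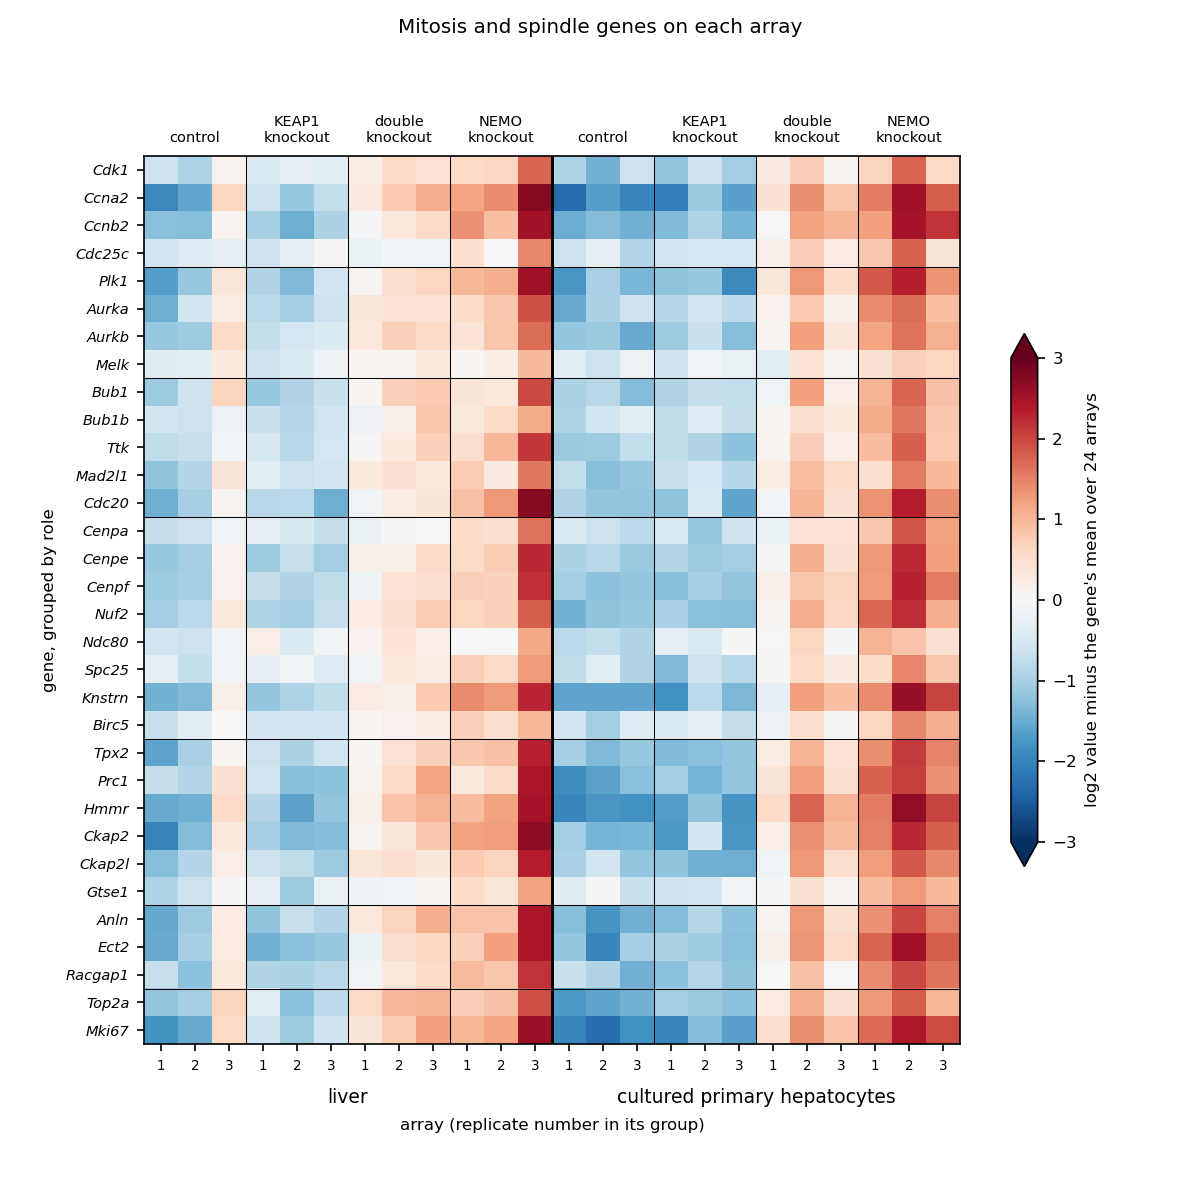
Log2 value of each of the 32 genes (rows, grouped by role) on each of the 24 arrays (columns), minus the gene's mean over all arrays. The NEMO knockout columns are the reddest in both tissues, with NEMO knockout 3 highest in liver for all 32 genes and NEMO knockout 2 highest in hepatocytes for 31, and liver control 3 is redder than the other control columns.

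All 4 measured genes of the cyclin-dependent kinase switch rose in NEMO knockout hepatocytes, and 3 did in liver. Cdk1 is the kinase that drives entry into mitosis. In cultured hepatocytes, Cdk1 read 4.13, 3.63 and 4.42 on the control arrays and 5.72, 6.80 and 5.62 on the NEMO knockout arrays. Its values were 3.86, 4.42 and 4.0 with KEAP1 knocked out and 5.32, 5.79 and 5.16 with both. Its NEMO knockout and double knockout arrays all lay above the control and KEAP1 knockout arrays. In liver, Cdk1 read 4.42, 4.13 and 5.14 on the control arrays and 5.64, 5.66 and 6.79 on the NEMO knockout arrays. Its values were 4.63, 4.76 and 4.70 with KEAP1 knocked out and 5.28, 5.64 and 5.47 with both. Control 3 was the one control liver near the double knockout values. The NEMO knockout against control change of Cdk1 was 1.99 ± 0.30 (adjusted p = 0.0013) in hepatocytes and 1.47 ± 0.30 (adjusted p = 0.039) in liver. Ccna2 encodes cyclin A2, which carries a cell from S phase to mitosis. In cultured hepatocytes, Ccna2 read 3.05, 3.70 and 3.39 on the control arrays and 6.89, 7.90 and 7.17 on the NEMO knockout arrays. Its values were 3.29, 4.25 and 3.73 with KEAP1 knocked out and 5.81, 6.74 and 6.19 with both. The lowest NEMO knockout array lay 3.19 above the highest control. In liver, Ccna2 read 3.43, 3.80 and 6.0 on the control arrays and 6.55, 6.76 and 8.09 on the NEMO knockout arrays. Its values were 4.70, 4.23 and 4.61 with KEAP1 knocked out and 5.63, 6.15 and 6.44 with both. Its changes were 3.94 ± 0.31 (adjusted p = 1.3e-05) in hepatocytes and 2.72 ± 0.57 (adjusted p = 0.041) in liver, the largest liver change of the 32 genes. Ccnb2, cyclin B2, changed by 3.38 ± 0.32 and 2.42 ± 0.41, called in both. Cdc25c, the phosphatase that removes the inhibitory phosphates from the kinase, had the smallest change of these 4. In cultured hepatocytes, Cdc25c read 2.64, 2.99 and 2.38 on the control arrays and 4.07, 5.04 and 3.66 on the NEMO knockout arrays. Its values were 2.71, 2.75 and 2.74 with KEAP1 knocked out and 3.43, 4.01 and 3.51 with both. The NEMO knockout and control arrays did not overlap. In liver, Cdc25c read 2.69, 2.89 and 3.0 on the control arrays and 3.78, 3.28 and 4.72 on the NEMO knockout arrays. Its values were 2.66, 2.97 and 3.21 with KEAP1 knocked out and 3.07, 3.16 and 3.14 with both. It rose by 1.58 ± 0.29 (adjusted p = 0.0045) in hepatocytes, and its liver change of 1.07 ± 0.28 (adjusted p = 0.085) missed the threshold.

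Of the mitotic kinases, all 4 rose in NEMO knockout hepatocytes and Plk1 alone was called in liver. Plk1 is the Polo kinase that matures centrosomes and sets up division. In cultured hepatocytes, Plk1 read 3.57, 4.34 and 3.95 on the control arrays and 7.15, 7.65 and 6.65 on the NEMO knockout arrays. Its values were 4.12, 4.18 and 3.40 with KEAP1 knocked out and 5.65, 6.62 and 5.87 with both. The lowest NEMO knockout value lay 2.32 above the highest control. In liver, Plk1 read 3.67, 4.17 and 5.68 on the control arrays and 6.31, 6.39 and 7.86 on the NEMO knockout arrays. Its values were 4.40, 4.0 and 4.73 with KEAP1 knocked out and 5.40, 5.82 and 5.95 with both. The changes were 3.20 ± 0.31 (adjusted p = 4.7e-05) and 2.35 ± 0.49 (adjusted p = 0.04). Aurka, which builds the spindle poles, changed by 2.36 ± 0.25 in hepatocytes, and by 1.71 ± 0.38 (adjusted p = 0.051) in liver, just outside the threshold. Aurkb, the kinase that corrects faulty attachments, changed by 2.55 ± 0.27 in hepatocytes and 1.5 ± 0.41 (adjusted p = 0.091) in liver. Melk, a kinase of dividing and progenitor cells, had the smallest change of the 32 genes in both tissues. In cultured hepatocytes, Melk read 3.08, 2.73 and 3.21 on the control arrays and 3.83, 4.09 and 4.02 on the NEMO knockout arrays. Its values were 2.75, 3.30 and 3.15 with KEAP1 knocked out and 3.06, 3.80 and 3.48 with both. The highest control array was still below the lowest NEMO knockout array. In liver, Melk read 3.01, 3.05 and 3.68 on the control arrays and 3.45, 3.60 and 4.35 on the NEMO knockout arrays. Its values were 2.73, 2.96 and 3.20 with KEAP1 knocked out and 3.49, 3.45 and 3.70 with both. There control 3 lay above NEMO knockout 1 and 2, and the changes were 0.97 ± 0.21 (adjusted p = 0.011) in hepatocytes and 0.55 ± 0.24 (adjusted p = 0.26) in liver.

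**Figure D3:**
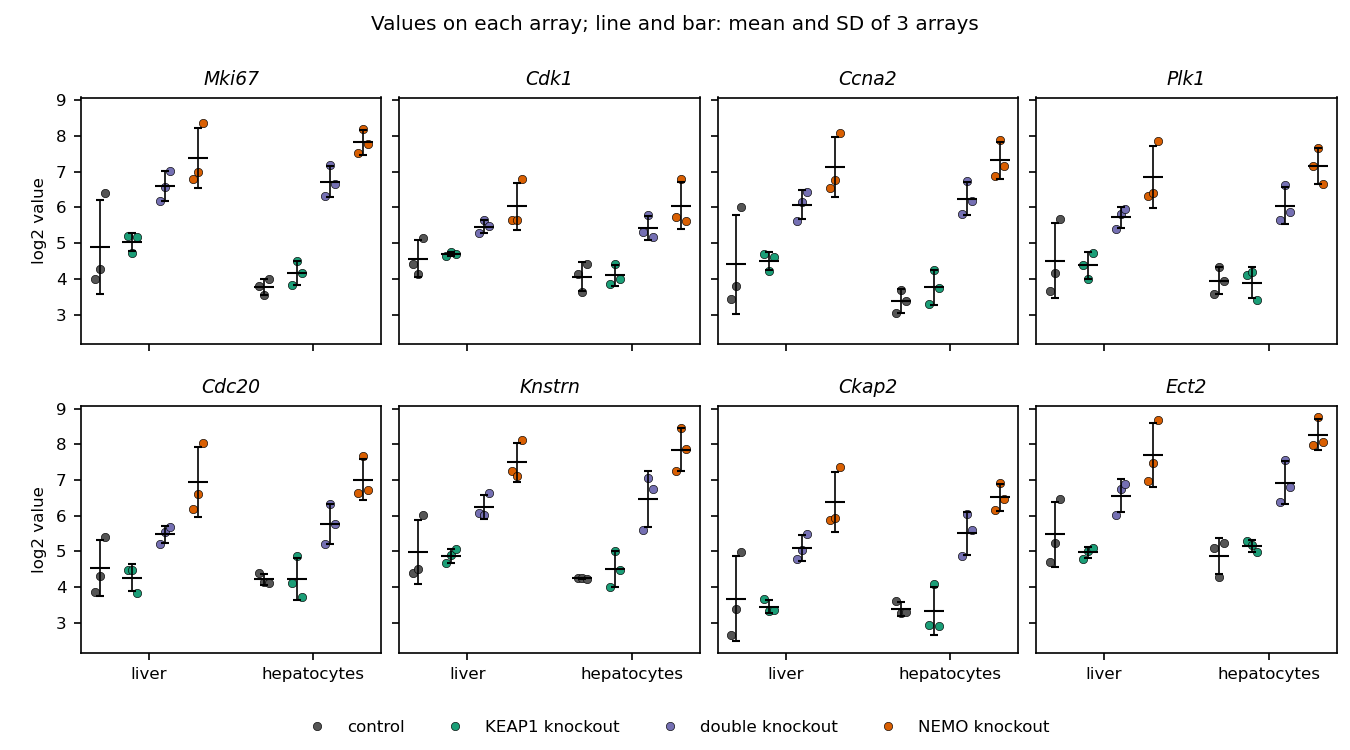
Log2 values of 8 of the genes on each array, by genotype in liver and in cultured hepatocytes, with mean and SD of 3 arrays as line and bar. In hepatocytes the NEMO knockout points lie above all control and KEAP1 knockout points, and in liver control 3 lifts the control mean and SD.

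In the spindle checkpoint, all 5 measured genes rose in NEMO knockout hepatocytes and 2 (Cdc20 and Ttk) in liver. Cdc20 is the checkpoint's target, the activator of the anaphase-promoting complex. In cultured hepatocytes, Cdc20 read 4.40, 4.15 and 4.12 on the control arrays and 6.64, 7.66 and 6.71 on the NEMO knockout arrays. Its values were 4.11, 4.87 and 3.73 with KEAP1 knocked out and 5.22, 6.33 and 5.76 with both. KEAP1 knockout values spread around the control. In liver, Cdc20 read 3.87, 4.32 and 5.40 on the control arrays and 6.18, 6.60 and 8.04 on the NEMO knockout arrays. Its values were 4.47, 4.49 and 3.84 with KEAP1 knocked out and 5.21, 5.53 and 5.69 with both. Its changes were 2.78 ± 0.34 (adjusted p = 0.00024) and 2.41 ± 0.45 (adjusted p = 0.027). Ttk, the kinase that starts checkpoint signalling, changed by 2.14 ± 0.25 and 1.71 ± 0.35. Bub1, a kinase that marks the inner centromere, changed by 2.25 ± 0.31 in hepatocytes and by 1.23 ± 0.47 (adjusted p = 0.2) in liver. Mad2l1, which forms the inhibitor of Cdc20, changed by 2.07 ± 0.24 in hepatocytes and 1.44 ± 0.37 (adjusted p = 0.077) in liver. Bub1b, its partner in that inhibitor, had the smallest liver change of the 5. In cultured hepatocytes, Bub1b read 3.15, 3.49 and 3.77 on the control arrays and 5.20, 5.67 and 4.89 on the NEMO knockout arrays. Its values were 3.32, 3.69 and 3.37 with KEAP1 knocked out and 4.16, 4.59 and 4.37 with both. Every NEMO knockout and double knockout array lay above every control and KEAP1 knockout array. In liver, Bub1b read 3.53, 3.44 and 3.90 on the control arrays and 4.39, 4.67 and 5.21 on the NEMO knockout arrays. Its values were 3.42, 3.24 and 3.48 with KEAP1 knocked out and 3.91, 4.24 and 4.92 with both. The changes were 1.78 ± 0.22 (adjusted p = 0.00025) in hepatocytes and 1.13 ± 0.26 (adjusted p = 0.054) in liver.

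All 8 centromere and kinetochore genes rose in NEMO knockout hepatocytes, and 6 did in liver. Knstrn (kinastrin) anchors spindle fibres at kinetochores. In cultured hepatocytes, Knstrn read 4.25, 4.25 and 4.24 on the control arrays and 7.24, 8.45 and 7.86 on the NEMO knockout arrays. Its values were 4.01, 5.01 and 4.47 with KEAP1 knocked out and 5.59, 7.07 and 6.74 with both. The 3 control values were nearly identical, and the lowest NEMO knockout value lay 2.99 above them. In liver, Knstrn read 4.41, 4.51 and 6.01 on the control arrays and 7.25, 7.12 and 8.13 on the NEMO knockout arrays. Its values were 4.67, 4.90 and 5.07 with KEAP1 knocked out and 6.08, 6.02 and 6.63 with both. With 2.53 ± 0.38 (adjusted p = 0.012) it had the lowest adjusted p of the 32 in liver, beside 3.60 ± 0.37 (adjusted p = 6.6e-05) in hepatocytes. The centromere's own histone Cenpa changed by 1.92 ± 0.26 and 1.39 ± 0.27. The motor Cenpe changed by 2.55 ± 0.29 and 1.88 ± 0.41, and the large coat protein Cenpf by 2.85 ± 0.24 and 1.85 ± 0.40. Birc5 (survivin), which takes Aurora B to the centromere, changed by 1.70 ± 0.24 and 1.08 ± 0.18. Ndc80, Nuf2 and Spc25 are subunits of the complex that grips microtubules. Spc25 was called in both tissues, at 1.62 ± 0.25 and 1.24 ± 0.21, while Nuf2 changed by 2.93 ± 0.28 in hepatocytes and 1.58 ± 0.36 (adjusted p = 0.051) in liver. In cultured hepatocytes, Ndc80 read 3.15, 3.23 and 3.07 on the control arrays and 4.99, 4.81 and 4.42 on the NEMO knockout arrays. Its values were 3.73, 3.53 and 3.90 with KEAP1 knocked out and 3.95, 4.61 and 3.92 with both. All 3 KEAP1 knockout arrays lay above the control arrays for this gene, though the change was not called. That held for 2 of the 32 genes, Ndc80 and Top2a, against 10.1% of all genes. For 1 gene all 3 lay below, against 9.21% of all genes. In liver, Ndc80 read 3.40, 3.33 and 3.86 on the control arrays and 3.97, 3.99 and 5.09 on the NEMO knockout arrays. Its values were 4.18, 3.53 and 3.86 with KEAP1 knocked out and 4.1, 4.39 and 4.17 with both. The NEMO knockout changes of Ndc80 were 1.59 ± 0.20 (adjusted p = 0.00036) and 0.82 ± 0.28 (adjusted p = 0.16).

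All 6 measured spindle assembly genes rose in NEMO knockout hepatocytes, and 3 did in liver. Ckap2 is a microtubule-stabilising protein of the spindle poles. In cultured hepatocytes, Ckap2 read 3.62, 3.27 and 3.30 on the control arrays and 6.17, 6.93 and 6.46 on the NEMO knockout arrays. Its values were 2.95, 4.1 and 2.93 with KEAP1 knocked out and 4.86, 6.05 and 5.60 with both. One KEAP1 knockout array, replicate 2, lay above all controls. In liver, Ckap2 read 2.66, 3.38 and 4.99 on the control arrays and 5.87, 5.93 and 7.35 on the NEMO knockout arrays. Its values were 3.67, 3.34 and 3.37 with KEAP1 knocked out and 4.78, 5.04 and 5.48 with both. Its changes were 3.12 ± 0.34 (adjusted p = 0.00011) and 2.71 ± 0.51 (adjusted p = 0.028). Its relative Ckap2l changed by 2.40 ± 0.29 and 1.92 ± 0.42, and Tpx2, which activates Aurora A on the spindle, by 2.81 ± 0.22 and 2.15 ± 0.42, called in both. Hmmr, a spindle protein that is also a hyaluronan receptor, and Prc1, which bundles the midzone, were among the largest in hepatocytes at 3.92 ± 0.30 and 3.31 ± 0.25. In liver they changed by 2.33 ± 0.53 (adjusted p = 0.052) and 1.48 ± 0.51 (adjusted p = 0.16). Gtse1 regulates microtubule dynamics and restrains p53. In cultured hepatocytes, Gtse1 read 3.61, 3.91 and 3.31 on the control arrays and 4.91, 5.25 and 4.95 on the NEMO knockout arrays. Its values were 3.35, 3.39 and 3.86 with KEAP1 knocked out and 3.95, 4.44 and 4.03 with both. NEMO knockout stood alone above the other groups. In liver, Gtse1 read 3.06, 3.34 and 3.93 on the control arrays and 4.54, 4.34 and 5.18 on the NEMO knockout arrays. Its values were 3.74, 2.90 and 3.75 with KEAP1 knocked out and 3.82, 3.86 and 4.08 with both. The changes of Gtse1 were 1.42 ± 0.20 (adjusted p = 0.00082) and 1.25 ± 0.29 (adjusted p = 0.055).

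All 3 cytokinesis genes were called in both tissues. Ect2 activates the small GTPase RhoA at the division plane. In cultured hepatocytes, Ect2 read 5.08, 4.28 and 5.25 on the control arrays and 7.98, 8.76 and 8.07 on the NEMO knockout arrays. Its values were 5.30, 5.17 and 4.98 with KEAP1 knocked out and 6.39, 7.57 and 6.80 with both. The lowest NEMO knockout array lay 2.73 above the highest control. In liver, Ect2 read 4.72, 5.23 and 6.48 on the control arrays and 6.96, 7.46 and 8.68 on the NEMO knockout arrays. Its values were 4.80, 5.01 and 5.11 with KEAP1 knocked out and 6.03, 6.76 and 6.88 with both. The changes were 3.40 ± 0.30 (adjusted p = 3e-05) and 2.23 ± 0.46 (adjusted p = 0.038). Racgap1 joins Ect2 to the midzone. In cultured hepatocytes, Racgap1 read 4.13, 3.89 and 3.36 on the control arrays and 6.21, 6.78 and 6.42 on the NEMO knockout arrays. Its values were 3.54, 3.95 and 3.58 with KEAP1 knocked out and 4.81, 5.67 and 4.79 with both. Its double knockout values lay between the other groups. In liver, Racgap1 read 4.11, 3.56 and 5.11 on the control arrays and 5.76, 5.64 and 6.98 on the NEMO knockout arrays. Its values were 3.89, 3.85 and 3.97 with KEAP1 knocked out and 4.70, 5.11 and 5.35 with both. It changed by 2.68 ± 0.26 (adjusted p = 4.7e-05) and 1.86 ± 0.39 (adjusted p = 0.041). Anln, the anillin scaffold of the contractile ring, changed by 3.12 ± 0.28 and 2.18 ± 0.47.

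Mki67 and Top2a act on chromosome structure: Ki-67 coats mitotic chromosomes and is the common marker of dividing cells, and topoisomerase II alpha untangles sister chromatids. In cultured hepatocytes, Mki67 read 3.81, 3.54 and 3.99 on the control arrays and 7.51, 8.19 and 7.77 on the NEMO knockout arrays. Its values were 3.83, 4.50 and 4.16 with KEAP1 knocked out and 6.32, 7.19 and 6.66 with both. The lowest NEMO knockout array lay 3.52 above the highest control. In liver, Mki67 read 4.01, 4.29 and 6.41 on the control arrays and 6.80, 6.99 and 8.36 on the NEMO knockout arrays. Its values were 5.19, 4.73 and 5.18 with KEAP1 knocked out and 6.18, 6.56 and 7.02 with both. Control 3 lay above all KEAP1 knockout livers and between double knockout 1 and 2. The changes of Mki67 were 4.04 ± 0.24 (adjusted p = 4.8e-06) in hepatocytes and 2.48 ± 0.55 (adjusted p = 0.0504) in liver, at the edge of the threshold and not called. In cultured hepatocytes, Top2a read 3.30, 3.43 and 3.60 on the control arrays and 6.32, 6.83 and 6.01 on the NEMO knockout arrays. Its values were 3.97, 3.90 and 3.79 with KEAP1 knocked out and 5.27, 6.12 and 5.48 with both. Every double knockout array lay above every control. In liver, Top2a read 3.84, 4.0 and 5.69 on the control arrays and 5.77, 5.91 and 6.97 on the NEMO knockout arrays. Its values were 4.69, 3.79 and 4.24 with KEAP1 knocked out and 5.60, 6.0 and 6.07 with both. Top2a changed by 2.94 ± 0.23 (adjusted p = 1.3e-05) and 1.71 ± 0.45 (adjusted p = 0.083).

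**Figure D4:**
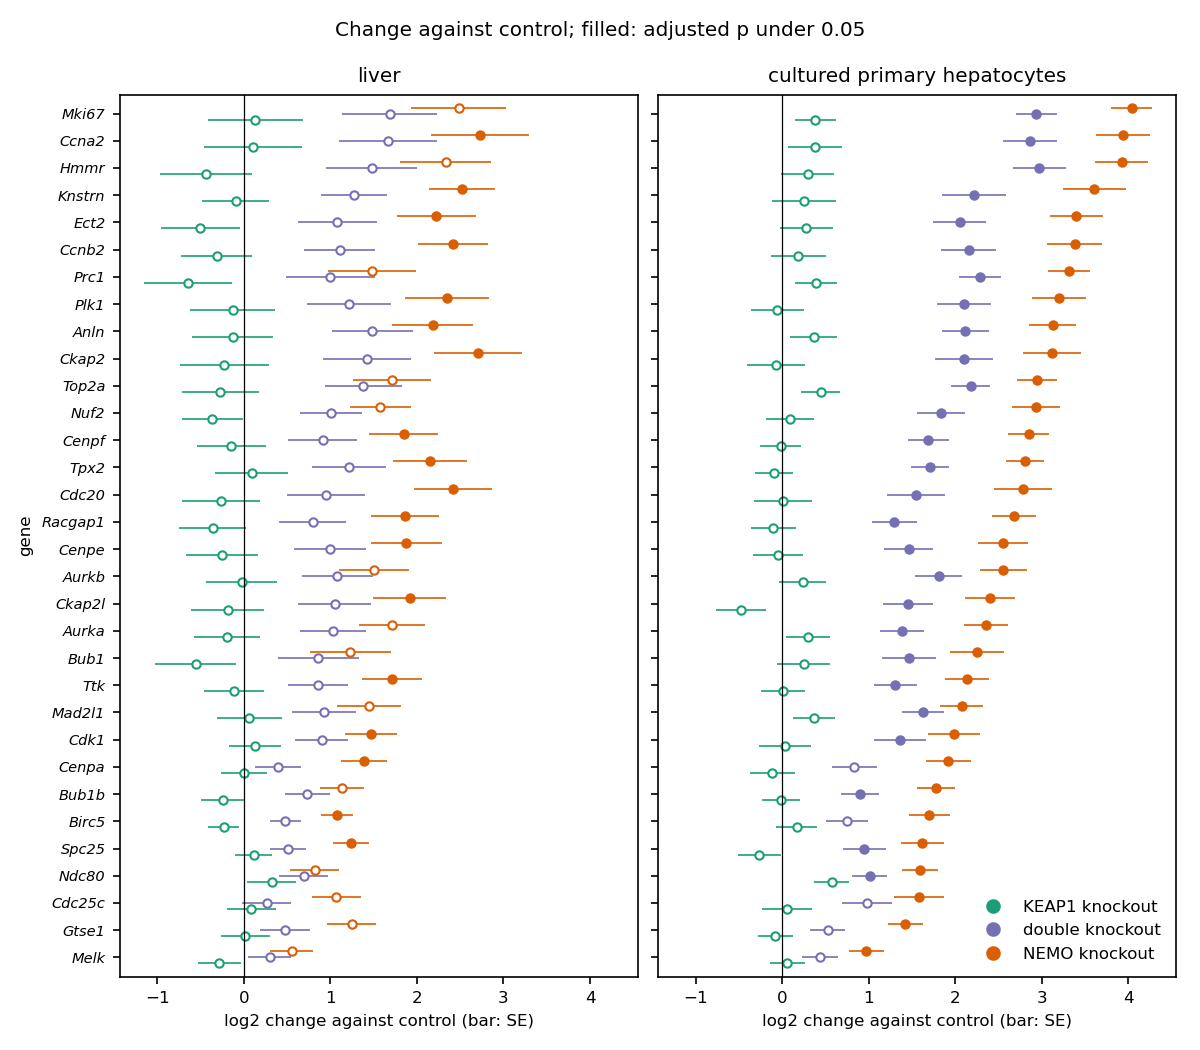
Log2 change against control (point) with its standard error (bar) for each of the 32 genes in NEMO, double and KEAP1 knockouts, in liver and in cultured hepatocytes, ordered by the NEMO change in hepatocytes. Filled points passed an adjusted p of 0.05: all 32 NEMO and 27 double knockout changes in hepatocytes, 18 NEMO changes in liver and no KEAP1 change.

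Loss of KEAP1 alone changed none of the 32 genes past the threshold in either tissue. In hepatocytes, limma called 0 members where 1.87% of all genes were called, and 1 member (Ndc80) had an unadjusted p under 0.05, as did 2567 of all 18820 genes. The changes ran from -0.48 for Ckap2l to 0.57 for Ndc80, with a median of 0.08 and standard errors of 0.20 to 0.37. The 3 largest were Ndc80 at 0.57 ± 0.20 (adjusted p = 0.21), Ckap2l at -0.48 ± 0.29 (adjusted p = 0.53) and Top2a at 0.45 ± 0.23 (adjusted p = 0.43). In liver 0 members and 0% of all genes were called by limma, and 0 members had an unadjusted p under 0.05, against 7.69% of all genes. The liver changes ran from -0.65 to 0.32 with a median of -0.16, the 3 furthest from 0 being Prc1 at -0.65 ± 0.51, Bub1 at -0.56 ± 0.47 and Ect2 at -0.50 ± 0.46. These liver values rest on control 3. Without the 4 arrays the median was 0.24 and the changes ran from -0.23 to 0.90, with 26 of the 32 above 0 against 10 on all arrays. Limma still called 0 members in both tissues without them, where 5.26% of all genes were called in liver and 1.82% in hepatocytes. On each control and KEAP1 knockout hepatocyte array, 26 to 28 of the 32 members lay below the array's median over measured genes. In liver 27, 28 and 10 did on the control arrays, and 26, 24 and 25 on the KEAP1 knockout arrays. A fall from such low levels would be hard to see.

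With both genes lost, the members stood between the NEMO knockout and the other groups. For all 32 genes in both tissues the NEMO knockout mean was highest and the double knockout mean next. The control mean lay above the KEAP1 knockout mean for 22 genes in liver and 11 in hepatocytes. In hepatocytes 27 were higher in the double knockout than in the control, where 6.73% of all genes were called higher, with a median change of 1.59. The largest were Hmmr at 2.97 ± 0.30, Mki67 at 2.94 ± 0.24, Ccna2 at 2.86 ± 0.31, Prc1 at 2.29 ± 0.25 and Knstrn at 2.22 ± 0.37. Next came Top2a at 2.18 ± 0.23, Ccnb2 at 2.15 ± 0.32, Anln at 2.12 ± 0.28, Ckap2 at 2.11 ± 0.34 and Plk1 at 2.10 ± 0.31. They were followed by Ect2 at 2.05 ± 0.30, Nuf2 at 1.84 ± 0.28, Aurkb at 1.81 ± 0.27, Tpx2 at 1.71 ± 0.22 and Cenpf at 1.69 ± 0.24. Cdc25c, Melk, Cenpa, Birc5 and Gtse1 were the 5 that missed the threshold, at 0.98 ± 0.29, 0.44 ± 0.21, 0.83 ± 0.26, 0.75 ± 0.24 and 0.53 ± 0.20. Of these calls, 23 held when any 1 array was left out, and without the 4 arrays 25 members were called, where 6.44% of all genes were called higher. Against the KEAP1 knockout, 25 members were higher, where 2.16% of all genes were called higher, and 15 of the calls held without any 1 array. The count there fell to 15 without KEAP1 knockout 3 or double knockout 2, and was 24 without the 4 arrays, where 2.83% of all genes were called higher. The largest were Hmmr at 2.68 ± 0.30, Mki67 at 2.56 ± 0.24, Ccna2 at 2.49 ± 0.31, Ckap2 at 2.18 ± 0.34 and Plk1 at 2.15 ± 0.31. Next came Ccnb2 at 1.97 ± 0.32, Knstrn at 1.97 ± 0.37, Ckap2l at 1.93 ± 0.29, Prc1 at 1.90 ± 0.25 and Tpx2 at 1.80 ± 0.22. They were followed by Ect2 at 1.77 ± 0.30, Anln at 1.75 ± 0.28, Nuf2 at 1.75 ± 0.28, Top2a at 1.73 ± 0.23 and Cenpf at 1.71 ± 0.24. Melk and Ndc80 changed least, at 0.38 ± 0.21 (adjusted p = 0.44) and 0.44 ± 0.20 (adjusted p = 0.34), and were not called.

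Set directly against the NEMO knockout, 10 members were lower in double knockout hepatocytes, where 1.16% of all genes were called lower, and none was higher. The median change over the 32 genes was -0.99, all 32 changes were below 0, and for 23 genes every double knockout array lay below every NEMO knockout array, against 9.72% of all genes. The 10 were Mki67 at -1.10 ± 0.24, the cytokinesis genes Racgap1 at -1.38 ± 0.26 and Ect2 at -1.35 ± 0.30, the kinetochore genes Cenpf at -1.16 ± 0.24, Cenpa at -1.09 ± 0.26 and Birc5 at -0.95 ± 0.24, and the spindle genes Tpx2 at -1.10 ± 0.22, Prc1 at -1.03 ± 0.25 and Gtse1 at -0.90 ± 0.20, with Bub1b of the checkpoint at -0.88 ± 0.22. Knstrn had the change furthest from 0, at -1.39 ± 0.37 (adjusted p = 0.058), but missed the threshold. None of the 10 calls held under every omission of 1 array. The count was 0 without NEMO knockout 2, the highest hepatocyte array for 31 of the 32 genes. It was 8 and 7 without NEMO knockout 1 and 3, 1 and 3 without double knockout 1 and 3, and 20 without double knockout 2, the highest of its group for all 32 genes. Without the 4 arrays 4 were called (Cenpa, Cenpf, Racgap1 and Tpx2), where 1.42% of all genes were called lower.

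In liver the double knockout gave no member past the threshold on all arrays. Against the control, limma called 0 members and 0.00531% of all genes, while 24 members and 20.7% of all genes had an unadjusted p under 0.05. All 32 changes were above 0 with a median of 1.00, and for 11 genes all double knockout arrays lay above all control arrays, against 8.45% of all genes. The 3 largest were Mki67 at 1.69 ± 0.55 (adjusted p = 0.15), Ccna2 at 1.66 ± 0.57 (adjusted p = 0.15) and Anln at 1.48 ± 0.47 (adjusted p = 0.14). In this comparison same-numbered samples deviated together, and with the replicate number as a block 10 members were called higher. Without control 3 the count was 21. The share of all genes called was not counted in those fits, so neither count can be read as particular to the members. Without the 4 arrays the count was 15, where 6.37% of all genes were called higher. Against the NEMO knockout, limma called 0 members and 0.632% of all genes lower, with 15 members and 11.9% of all genes at an unadjusted p under 0.05. All 32 changes were below 0, with a median of -0.80, and 18 genes had all double knockout arrays below all NEMO knockout arrays, against 9.74% of all genes. The 3 furthest from 0 were Cdc20 at -1.46 ± 0.45 (adjusted p = 0.18), Ccnb2 at -1.31 ± 0.41 (adjusted p = 0.19) and Ckap2 at -1.28 ± 0.51 (adjusted p = 0.33). Without the 4 arrays Ccnb2 and Knstrn were called, at -1.46 ± 0.35 and -1.45 ± 0.24, where 1.54% of all genes were called lower. Against the KEAP1 knockout, limma called 0 members and 0% of all genes, with 27 members and 7.59% of all genes at an unadjusted p under 0.05. The median change was 1.22, and for 29 genes all double knockout arrays lay above all KEAP1 knockout arrays, against 7.40% of all genes. The 3 largest were Hmmr at 1.91 ± 0.53 (adjusted p = 0.64), Top2a at 1.65 ± 0.45 (adjusted p = 0.64) and Prc1 at 1.65 ± 0.51 (adjusted p = 0.64).

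The 3 comparisons with the control share its arrays in each tissue, and the comparisons with the double knockout share theirs, so the effect of KEAP1 loss on the NEMO effect was also fitted as a difference of differences. In hepatocytes this interaction was below 0 for all 32 genes, from -1.64 to -0.41. It is on the log2 scale, where levels of most members were low in the control and KEAP1 knockout. Limma called 0 members, where 0.0425% of all genes were called, and 26 members had an unadjusted p under 0.05, as did 9.93% of all genes. The 3 furthest from 0 were Knstrn at -1.64 ± 0.52 (adjusted p = 0.29), Ect2 at -1.63 ± 0.43 (adjusted p = 0.21) and Mki67 at -1.48 ± 0.34 (adjusted p = 0.15). In liver it was below 0 for 29 genes, limma called 0 members and 0.0106% of all genes, and 3 members had an unadjusted p under 0.05, as did 5.06% of all genes. The 3 furthest from 0 were Cdc20 at -1.20 ± 0.64 (adjusted p = 0.94), Ccna2 at -1.16 ± 0.80 (adjusted p = 0.94) and Knstrn at -1.16 ± 0.54 (adjusted p = 0.94). Without the 4 arrays the median moved from -0.69 to -1.13, and 1 member, Knstrn, was called lower in liver, at -1.87 ± 0.34, where 0.282% of all genes were called lower.

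No change differed between liver and hepatocytes past the threshold. The NEMO change was smaller in liver for all 32 genes, by a median of 0.72, and the 3 furthest from 0 were Prc1 at -1.83 ± 0.61 (adjusted p = 0.34), Hmmr at -1.59 ± 0.66 (adjusted p = 0.46) and Mki67 at -1.56 ± 0.65 (adjusted p = 0.46). Limma called 0 members for that difference, where 0.0691% of all genes were called, and 6 members had an unadjusted p under 0.05, as did 9.46% of all genes. The median difference was -0.44 without the 4 arrays against -0.72 with them, and 3 genes changed more in liver. For the KEAP1 change limma called 0 members and 0% of all genes, with 0 members and 5.68% of all genes at an unadjusted p under 0.05, and the furthest from 0 were Prc1 at -1.04 ± 0.61, Bub1 at -0.80 ± 0.60 and Ect2 at -0.78 ± 0.59. Its median was -0.26 on all arrays and 0.14 without the 4. For the double knockout change it called 0 members and 0.0691% of all genes, with 2 members and 7.59% of all genes at an unadjusted p under 0.05, the furthest from 0 being Hmmr at -1.49 ± 0.66, Prc1 at -1.29 ± 0.61 and Mki67 at -1.25 ± 0.65. Its median was -0.62 on all arrays and -0.36 without the 4. Control hepatocytes lay below control livers for 31 of the 32 genes, by a median of 0.47. That gap also rests on liver control 3. The median difference was -0.15 without the 4 arrays, and 9 of the 32 genes were higher in the hepatocytes. Limma called 0 of these differences on all arrays, where 5.13% of all genes were called, and 6 members had an unadjusted p under 0.05, as did 3205 of all 18820 genes. The 3 furthest from 0 were Prc1 at -1.20 ± 0.43 (adjusted p = 0.13), Mki67 at -1.12 ± 0.46 (adjusted p = 0.2) and Top2a at -1.06 ± 0.38 (adjusted p = 0.13).

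The other gene lists were read against the share of all genes called. Of NEMO knockout against control that share was 4.61% higher and 2.05% lower in hepatocytes, and 1.01% higher in liver, or 8.48% without the 4 arrays. Of 57 further genes that are switched on for division, 48 were measured. In NEMO knockout hepatocytes 31 of them rose and none fell, with a median change of 1.21 against -0.02 over all genes. The largest were Knl1, the kinetochore scaffold, at 3.0 ± 0.27, Nek2, a centrosome kinase, at 2.91 ± 0.32, and Cdca3, which promotes the destruction of the mitotic inhibitor Wee1, at 2.59 ± 0.25. In liver 7 of the 48 rose, and 31 did without the 4 arrays, with a median change of 0.97 on all arrays, led by Nek2 at 2.13 ± 0.34 and Cdca3 at 1.90 ± 0.36. In double knockout hepatocytes 6 of the 48 were lower than in the NEMO knockout, where 1.16% of all genes were, with Shcbp1 at -1.44 ± 0.29, Spag5 at -1.27 ± 0.29 and Cdca3 at -1.10 ± 0.25. Of 19 measured subunits of the anaphase-promoting complex and other mitosis genes that resting cells also express, 2 (1 without the 4 arrays) rose in NEMO knockout hepatocytes, with a median change of 0.07. They were Ckap5, a microtubule polymerase, at 0.66 ± 0.17 and the checkpoint protein Bub3 at 0.41 ± 0.10. In liver Ckap5 was the 1 that rose on all arrays, at 0.70 ± 0.14, and 5 of the 19 rose without the 4.

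Among 11 measured brakes on mitotic entry, Cdkn1a was the 1 that rose in NEMO knockout liver, at 1.52 ± 0.25, and 5 rose without the 4 arrays. It encodes p21, an inhibitor of cyclin-dependent kinases. In NEMO knockout hepatocytes 2 of the 11 rose, the checkpoint kinase Chek1 at 1.02 ± 0.26 (adjusted p = 0.029) and the 14-3-3 protein Sfn at 0.72 ± 0.18 (adjusted p = 0.027), and Chek1 alone without the 4 arrays. Cdkn1a was at 2.44 ± 0.72 (adjusted p = 0.062) there and did not pass. Of 16 measured genes of the DREAM and MuvB complexes and their relatives, 2 rose in liver and 3 in hepatocytes, and 1 fell in hepatocytes. Of all genes 1.01% rose in liver, and 4.61% rose and 2.05% fell in hepatocytes. Mybl1, a relative of B-MYB, changed by 2.61 ± 0.46 in liver and 1.97 ± 0.25 in hepatocytes. Rbl1, the pocket protein p107, changed by 1.08 ± 0.21 and 1.23 ± 0.21. In double knockout against NEMO knockout hepatocytes E2f8, a repressor of the E2F family, was the 1 of these that was lower, at -1.55 ± 0.30 (adjusted p = 0.013). Of all genes 1.16% were called lower there. With KEAP1 alone lost, limma called 0 genes of these 4 lists on all arrays, where it called 1.87% of all genes in hepatocytes and 0% in liver. Without the 4 arrays 3.71% of all genes were called higher in liver and 1.55% lower. There 3 of the 11 brakes and 1 gene of each other list were higher, and 1 DREAM or MuvB gene was lower.

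Markers of other cell types also moved, and their part in these results was not tested. In NEMO knockout against control hepatocytes 10 of 10 macrophage, 9 of 10 stellate cell and 9 of 10 endothelial markers rose, where 4.61% of all genes did. The mean macrophage level ran from 5.73 to 6.71 over control arrays and 7.71 to 8.15 over NEMO knockout arrays. The stellate mean ran from 4.57 to 5.10 and from 6.38 to 6.67, and the endothelial mean from 5.38 to 6.21 and from 7.12 to 7.49. The members' own mean ran from 3.66 to 3.67 over control and 6.00 to 6.72 over NEMO knockout hepatocytes. None of the 10 hepatocyte markers was called, and their mean stayed between 12.4 and 12.6 in all 4 genotypes of the cultures. In KEAP1 knockout hepatocytes 9 endothelial, 3 macrophage and 2 stellate markers of 10 each were higher than in the control, where 1.45% of all genes were, and 0 members were called by limma. The counts were 8, 0 and 2 without the 4 arrays. In double knockout against NEMO knockout hepatocytes 1 macrophage and 1 endothelial marker were higher, where 2.16% of all genes were, and 10 members were lower. No stellate marker was called there on all arrays, and 1 was lower without the 4. The stellate mean ran from 6.09 to 6.31 over double knockout hepatocytes, below the 6.38 to 6.67 of the NEMO knockout, as the members did. The macrophage mean ran from 8.03 to 8.54 over the double knockout arrays, and the endothelial mean from 7.41 to 7.60. In NEMO knockout liver 2 of 10 stellate and 0 of 10 macrophage markers were called higher by limma on all arrays, where 1.01% of all genes were, and 8 of 10 of each without the 4 arrays, where 8.48% were. No marker of T and natural killer cells, B cells, neutrophils, erythroid precursors or adipocytes was called in NEMO knockout against control on all arrays, and 1 cholangiocyte marker was lower in hepatocytes.

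**Figure D5:**
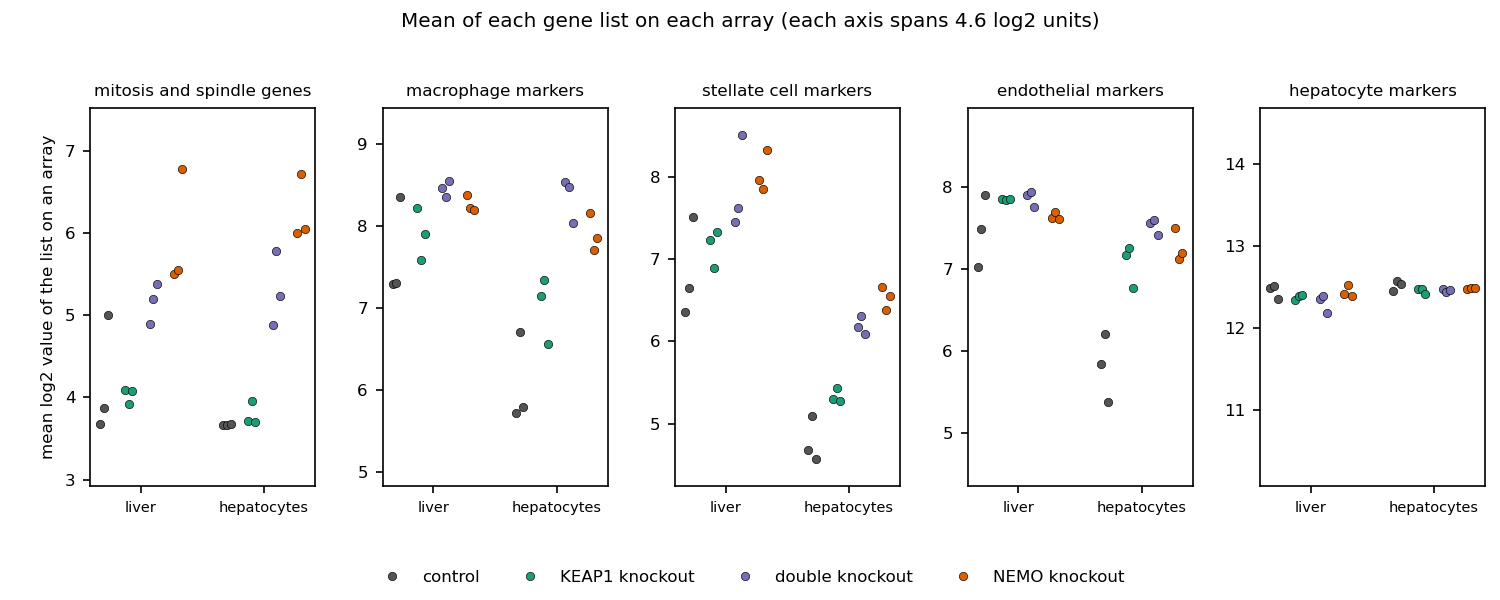
Mean log2 value of the 32 mitosis and spindle genes and of 10 markers each of macrophages, stellate cells, endothelium and hepatocytes, on each array by genotype in liver and cultured hepatocytes; every axis spans the same number of log2 units. In hepatocytes the double knockout points lie below the NEMO knockout points for the mitosis genes and the stellate markers and overlap them or lie above for macrophage markers, and hepatocyte markers lie level throughout.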

How the data were processed

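RNA of whole liver and cultured primary hepatocytes was hybridised, 1 sample an array, to Affymetrix mouse arrays. The authors deposited log2 values for 35556 probe sets, made by RMA per the submitters' processing notes, which corrects background, normalizes quantiles and summarises probes; its version and the probe sets' genome build were not stated. Platform annotation named 1 gene for 21218 probe sets, several for 1881 and none for 12457. The brightest of a gene's probe sets on average was used, giving 18820 genes. Array medians ran from 4.04 to 4.23. Genotypes were compared with limma 3.58.1 in R 4.3.3 (intensity trend, 12 arrays a tissue, all 24 across tissues), with Benjamini-Hochberg adjustment over all genes and a threshold of 0.05. The fit was tested on simulated data with independent noise, which does not cover an array that shifts many genes together. Errors of changes are standard errors.

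Replicate numbers come from the labels. Same-numbered samples deviated together at over 0.1 in all 3 pairs (correlations 0.12, 0.14 and 0.23) only for double knockout against control in liver. Alternatives were the replicate block, each array left out, genes with a mean of at least 4, quantile normalization, the mean of a gene's probe sets, no trend, and only the 2 groups compared. Leaving out 4 arrays was added after the data were seen, the members' values on liver control 3 among them. Named genes are members past the threshold (the 15 largest, otherwise the 3 largest changes), values by array of Mki67, Cdk1 and the largest and smallest liver NEMO change of each role, and the 3 largest changes of other lists. The members, lists and rules were chosen with earlier results of these data known. Promoter windows are those of RefSeq, GRCm38.p6.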

Additional observations from a re-analysis of the deposited data

How the results depend on the processing

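The number of members called was the measure. The share of all genes called was counted only on all arrays and without the 4 arrays. Counts of members under the other settings therefore have no such share beside them. With the replicate block it was 29 for NEMO knockout against control in liver, 10 for double knockout against control and 2 lower for double knockout against NEMO knockout there, and in hepatocytes 19 lower for double knockout against NEMO knockout and 1 lower for the interaction. For all of these comparisons, double knockout against control in liver among them, the labels give the samples only a shared number. The block moved no other count by over 1.5 times. Leaving out 1 array gave 0 to 29 for NEMO knockout against control in liver, 0 to 21 for double knockout against control in liver, 0 to 20 for double knockout against NEMO knockout and 15 to 23 for double knockout against KEAP1 knockout in hepatocytes, and 0 to 1 for control hepatocytes against control liver. With only the 2 groups compared the count was 0 for NEMO knockout against control in liver and 5 for double knockout against NEMO knockout in hepatocytes. Without the 4 arrays, chosen after the data were seen, the liver counts were 30 for NEMO knockout and 15 for double knockout against control, 2 lower for double knockout against NEMO knockout and 1 lower for the interaction, and 4 lower in hepatocytes for double knockout against NEMO knockout. The cause of these shifts was not tested, beyond the fewer arrays in the fits. The filter on low means, quantile normalization, the mean of probe sets and no trend kept each count within 1.5 times. No change of a called gene reversed. With 3 arrays a group, and doubt over 4 arrays, liver counts are the least firm.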
